A study of Mus musculus with 49 samples.

Results

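The genes described here load peptide onto MHC class II molecules in mouse B cell precursors. They are H2-DMa, H2-DMb1, H2-DMb2 and H2-Oa, 4 of the 7417 genes that a U74Av2 probe set matched alone and of the 8220 on the U74A array. Members were taken as every probe set whose platform annotation gave 1 of these symbols and no other, which left 1 probe set for each gene on each array.

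Class II molecules are assembled with the invariant chain (Cd74), which blocks their groove on the way to late endosomes. There, after proteases have cut the chain down to a short fragment, H2-DM pulls the fragment out and favors peptides that bind tightly. H2-DM is a heterodimer of the alpha chain H2-DMa with a beta chain, and mice carry a pair of closely related beta chain genes, H2-DMb1 and H2-DMb2. H2-O, a heterodimer of H2-Oa and H2-Ob found mainly in B cells, binds H2-DM and restrains it. Ciita, the class II transactivator, drives the promoters of these genes together with factors bound at the X and Y boxes.

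The members lie within the class II region of chromosome 17 (RefSeq, GRCm38.p6). H2-Oa spans chr17:34092379-34095234, H2-DMa chr17:34119693-34139101, H2-DMb2 chr17:34143229-34151553 and H2-DMb1 chr17:34153191-34160229. Promoters of H2-Oa and of both beta chain genes are shown to set the X and Y box letters of the inhibitor chain beside those of the paralogs. Each run gives the 150 bases before a RefSeq transcript start on the forward strand, with ATTGG of the Y box in capitals and, where it lies 28 to 36 bases before it, GNAAC of the X box in capitals too.
H2-Oa, chr17:34092229-34092378: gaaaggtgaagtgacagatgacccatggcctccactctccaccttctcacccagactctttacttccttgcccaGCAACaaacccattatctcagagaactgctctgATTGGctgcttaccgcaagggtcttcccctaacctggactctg
H2-DMb1, chr17:34153041-34153190: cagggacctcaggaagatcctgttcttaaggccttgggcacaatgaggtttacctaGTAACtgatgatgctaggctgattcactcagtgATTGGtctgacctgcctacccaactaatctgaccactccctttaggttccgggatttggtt
H2-DMb2, chr17:34145099-34145248: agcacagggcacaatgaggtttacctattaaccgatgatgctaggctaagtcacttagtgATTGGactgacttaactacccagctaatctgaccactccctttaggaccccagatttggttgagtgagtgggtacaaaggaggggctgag

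Both H2-Oa and H2-DMb1 held the pair of motifs with first letters 33 bases apart, as had H2-Aa, which encodes a class II alpha chain. The distance was 32 bases at H2-Eb1, a class II beta chain, and 30 at H2-Ob, the partner of H2-Oa. The H2-DMb2 window held ATTGG, 90 bases before its start, without the pair. Set side by side at ATTGG, 71 of 85 bases were identical between the H2-DMb1 and H2-DMb2 windows. Within the X box letters they differed by G1T, counted from the first letter of GNAAC, with H2-DMb1 first. Neither of the 2 windows annotated for H2-DMa, with starts at chr17:34122832 and chr17:34125518, held the pair. Both starts lie in the early part of its span, and no window nearer the end at chr17:34139101 was searched. H2-DMa is therefore not shown to lack the pair. Searched on both strands of the 250 bases before each start, GNAAC was found in 79.6% of 32851 windows, ATTGG in 33.8% and the pair in 1.28%. The distance was set after these windows were read, and a match describes letters, not binding.

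Expression was measured in B cell populations of bone marrow from mice that were generally 4 to 8 wk old. B1-8h/3-83(kappa) mice carry a knocked-in heavy chain flanked by LoxP sites and a knocked-in light chain, which together form the B cell receptor. Their cells were grown in interleukin-7 (IL-7) and then kept for 2 d with interferon alpha and beta and without IL-7. IgM-high cells of mice lacking Mx-Cre were sorted as Ctrl-Mhi (n = 4). Mx-Cre is a Cre transgene driven by an interferon-responsive promoter, and B1-8h/3-83(kappa)/Mx-Cre cells of the same culture were sorted as IgM-high (Cre-Mhi, n = 4) or IgM-low (Cre-Mlo, n = 4). All 3 groups therefore received interferon, and Cre-Mhi cells had been exposed to Cre as well. B6-M- (n = 3) were B220+ IgM-negative cells from IL-7 cultures of C57BL/6 marrow. FxD (n = 3) were pre-B cells (B220+ CD43-negative IgM-negative) and FxE (n = 3) immature B cells (B220+ IgM+ IgD-negative), both sorted from Balb/c marrow without culture, with RNA amplified in 2 rounds. GFPneg and GFPpos (n = 3 each) came from IL-7 cultures of mice with an anti-HEL (hen egg lysozyme) immunoglobulin transgene and a Rag-2-GFP reporter. They were kept for 1 d without IL-7. GFPneg cells were untreated and sorted as IgM+ cells lacking GFP, and GFPpos cells received herbimycin A, an inhibitor of tyrosine kinases, and were sorted as IgM+ cells with GFP, so drug and sort changed together. FxE Ctrl (n = 4) and FxE HA (n = 6) were immature B cells sorted from Bcl-2 transgenic marrow and cultured without or with herbimycin A. On U74A arrays, 3 samples each were run of HEL-Mhi (IgM-high, IgD negative to low, from anti-HEL cultures), HEL-Mlo (IgMa-low, IgD-negative), HEL 48h (B220+ IgMa-high GFP+ after 48 h with 1 µg/ml HEL) and Ctrl 48h (B220+ IgMa-high GFP-negative after 48 h without HEL). The last 2 groups carry the same transgenes as GFPneg, and antigen and GFP sort again changed together. By the labels HEL-Mlo, HEL 48h and Ctrl 48h came from 5 d cultures with 16 ng/ml IL-7. The study's methods give the same dose for IL-7 cultures of the knock-in and anti-HEL mice.

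Median signals of the arrays lay between 345.9 and 544 on U74Av2 and between 512.3 and 596.5 on U74A, except for the 3 HEL-Mlo arrays, at 21.6 to 26.2, which are on another scale and are given here only by rank within the array. B lineage markers gave signal in every group. Summed over the 7 measured of 9 listed, they ran from 76225 in FxD to 204596 in Ctrl-Mhi. None of the 7 was at or under 200 throughout a group. Ms4a1, which encodes CD20, alone ran from a mean of 1511 in B6-M- to 73513 in FxE. A lower sum therefore need not mean fewer B lineage cells. Of 10 neutrophil markers 8 were measured, and their sum was 1389 to 3197 in the groups from IL-7 cultures against 27586 to 268782 in FxD, FxE, FxE Ctrl and FxE HA. All 5 measured erythroid markers of 8 summed to 56904 to 157407 in FxD and FxE against 792 to 10005 elsewhere. Markers of other cells were thus high as well in FxD, FxE, FxE Ctrl and FxE HA, and the purity of these sorts was not tested. Summed macrophage and dendritic markers, cells that also make class II, lay between 3295 and 12780 over 13 of 14 listed. Single genes of that list varied more, and mean Lyz2 ran from 25.3 in GFPneg to 3548 in FxE and 4988 in FxE Ctrl. In such bulk samples fewer cells of a type and less RNA per cell cannot be told apart. By the methods, the samples of Ctrl-Mhi, Cre-Mhi and Cre-Mlo came from 4 independent sorts each and all other samples from 2 or 3, so that some of the 4 FxE Ctrl and 6 FxE HA arrays may share a sort. Nothing in the labels ties samples to animals, and p-values measure the spread between these samples.

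H2-DMb1, H2-DMb2 and H2-Oa had their highest mean signal in GFPneg and H2-DMa in FxE, and the lowest was in FxE HA for every gene but H2-DMb1, which was lowest in FxD. For H2-DMa the mean signal was highest in FxE, at 27507 ± 1054 (SD, n = 3), and lowest in FxE HA, at 1735 ± 363 (SD, n = 6), a 15.9-fold range. Neighbors in that order did not overlap from FxE to FxE Ctrl to GFPneg, between Cre-Mhi and FxD, and between B6-M- and FxE HA. Ctrl-Mhi overlapped both its neighbors, GFPneg and Cre-Mhi, and from FxD over GFPpos and Cre-Mlo to B6-M- each group overlapped the next.

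H2-DMb1 ran from 18607 ± 696 (SD, n = 3) in GFPneg to 244 ± 72.0 (SD, n = 3) in FxD, where it was dim, at the 28.7 to 46.4 percentile of its arrays. H2-DMb2 ran over 32.6-fold, from 9113 ± 590 (SD, n = 3) in GFPneg to 280 ± 210 (SD, n = 6) in FxE HA, and only Ctrl-Mhi and FxE stood apart among its neighbors. H2-Oa ran over 8.68-fold, from 4794 ± 853 (SD, n = 3) in GFPneg to 552 ± 99.9 (SD, n = 6) in FxE HA, and every neighboring pair of its groups overlapped. Balb/c immature B cells thus had the highest H2-DMa signal and a middle place for both beta chain signals. Extra amplification is described for FxD and FxE alone, and its part in these orders and fold ranges was not tested. B lineage markers also moved both ways between FxE and Ctrl-Mhi. Mean Cd79a was 16460 in FxE and 77897 in Ctrl-Mhi, and Ebf1 1006 and 10115, while Ms4a1 was 73513 and 40166. Levels were not compared between genes, since each probe set has its own response.

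**Figure D1:**
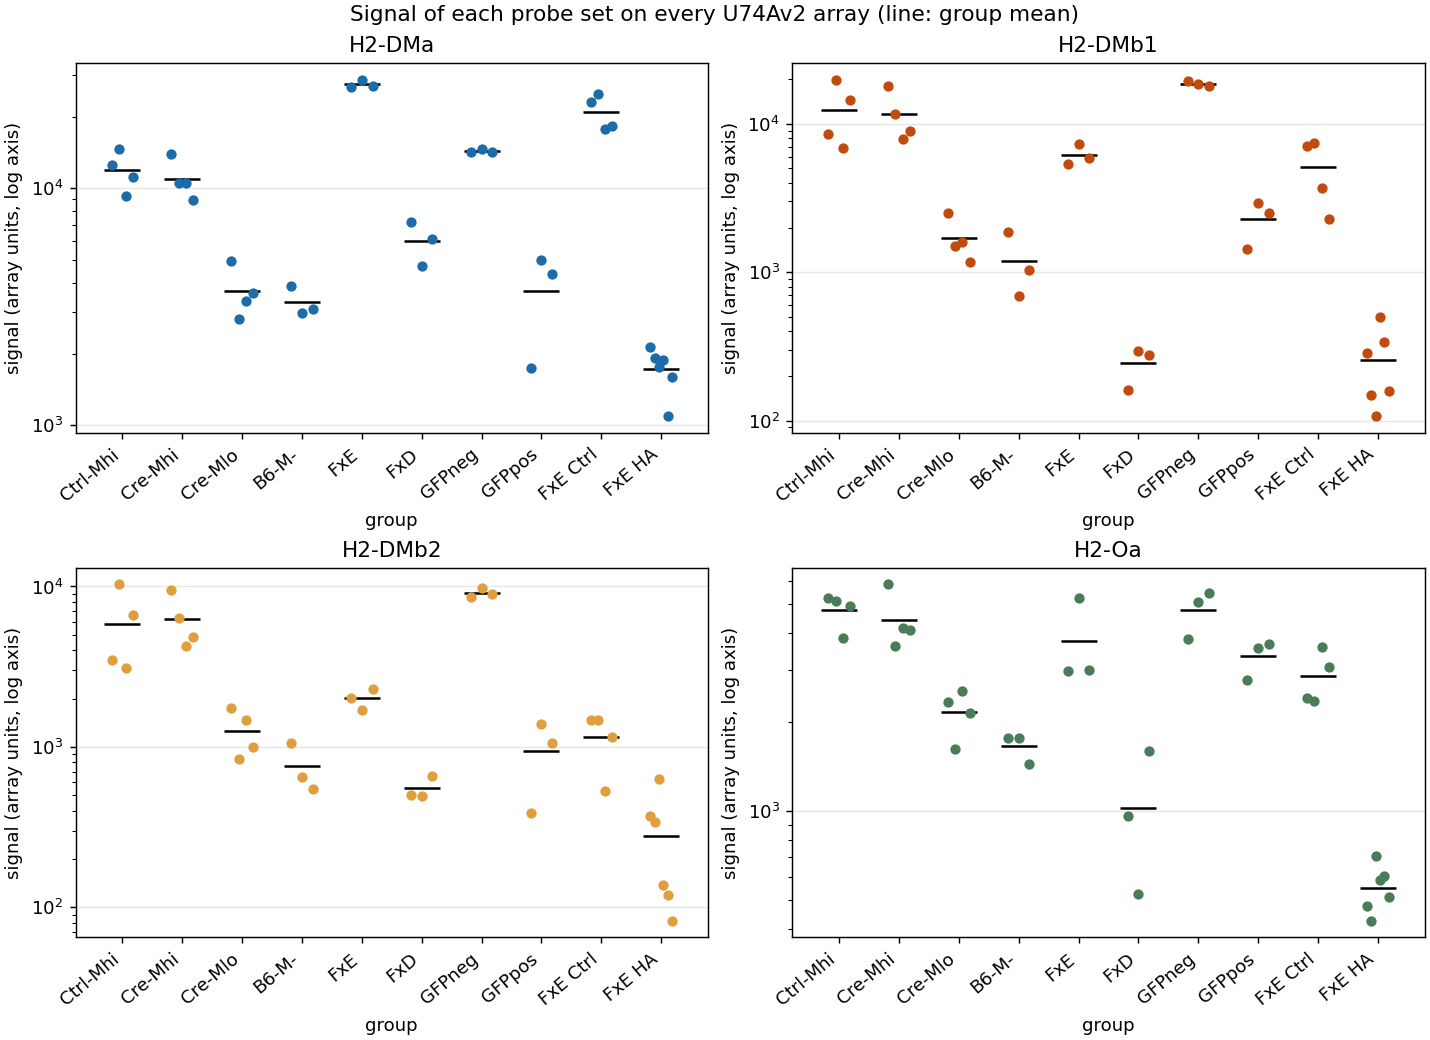
Signal (log axis) of the H2-DMa, H2-DMb1, H2-DMb2 and H2-Oa probe sets on each of the 37 U74Av2 arrays, by group; points are arrays and lines are group means. H2-DMa, H2-DMb1 and H2-Oa of every Cre-Mlo, B6-M- and FxE HA array lie below all arrays of their comparison group, while H2-DMb2 of FxE HA overlaps FxE Ctrl.

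The first question was what happened to the loading genes once the receptor was deleted. All 4 fell in Cre-Mlo relative to Ctrl-Mhi, between 2.22-fold and 6.98-fold, against 4.1% of all 9977 probe sets called lower and 8.33% called in either direction. Arrays of Cre-Mlo lay below all Ctrl-Mhi arrays for each gene, as for 8.23% of probe sets. H2-DMa, the alpha chain of the exchange factor, gave signals of 12576.5, 14617.1, 9284.7 and 11191.2 in Ctrl-Mhi, 13987.5, 10498, 10527.8 and 8911.3 in Cre-Mhi and 4955.4, 2800.1, 3331.9 and 3615.6 in Cre-Mlo. No Cre-Mlo array reached either IgM-high group. The log2 difference to Ctrl-Mhi was -1.71 (SE 0.21), a 3.27-fold lower signal, with adjusted p = 0.000565 in limma.

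Log2 differences of the beta chains were larger, though members were not tested against each other. H2-DMb1 signals were 8578.4, 19767.2, 6911.9 and 14433.6 in Ctrl-Mhi, 18060.9, 11595.8, 7890.2 and 8895.7 in Cre-Mhi and 2512.4, 1507.4, 1608.9 and 1168.6 in Cre-Mlo. Ctrl-Mhi arrays spread beyond both ends of the Cre-Mhi range, and all Cre-Mlo arrays were lower. Relative to Ctrl-Mhi the log2 difference was -2.80 (SE 0.38, adjusted p = 0.000979 in limma). H2-DMb2 signals were 3456.5, 10290, 3088.8 and 6635.9 in Ctrl-Mhi, 9532.8, 6319.7, 4238.3 and 4837.9 in Cre-Mhi and 1737.8, 838.3, 1460.1 and 993.3 in Cre-Mlo. Again no Cre-Mlo array overlapped, with a log2 difference to Ctrl-Mhi of -2.11 (SE 0.41, adjusted p = 0.00959). The pair are close paralogs and may hybridize to each other's probes, and a further probe set that matches both gave -2.88 (adjusted p = 0.00384).

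H2-Oa, a chain of the inhibitor, fell least. Its signals were 5246.9, 5121.4, 3838.3 and 4932.5 in Ctrl-Mhi, 5839.3, 3629.5, 4167.6 and 4104 in Cre-Mhi and 2343.5, 1628, 2549.1 and 2143.3 in Cre-Mlo. Here too the highest Cre-Mlo array was below every IgM-high array, and the log2 difference to Ctrl-Mhi was -1.15 (SE 0.19, adjusted p = 0.00361 in limma). Its partner H2-Ob showed a log2 difference of -0.07 (adjusted p = 0.87).

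Measured against Cre-Mhi, cells that shared culture and transgene with Cre-Mlo, all 4 fell as well, where 2.95% of probe sets were called lower and 6.08% in all. No member overlapped, as held with Cre-Mlo lower for 6.47% of probe sets. Log2 differences were -1.59 for H2-DMa (adjusted p = 0.00119), -2.75 for H2-DMb1 (adjusted p = 0.00151), -2.30 for H2-DMb2 (adjusted p = 0.00728) and -1.03 for H2-Oa (adjusted p = 0.00879). These comparisons share the Cre-Mlo arrays. Cre-Mhi and Ctrl-Mhi overlapped for each gene, with log2 differences from -0.12 to 0.19, none of which passed in limma at adjusted p of 0.92 to 0.99. Their 95% intervals reached from -0.58 to 0.35 for H2-DMa and from -0.72 to 1.10 for H2-DMb2. In that comparison 0.02% of probe sets passed, 2.11% had all Cre-Mhi arrays below Ctrl-Mhi, and 711 had an unadjusted p under 0.05. Cre-Mhi is not an undeleted control: the paper found by PCR that part of these cells had already lost the floxed heavy chain. For transcripts chosen as differing between Ctrl-Mhi and Cre-Mlo, it reported generally intermediate expression in Cre-Mhi. Summed B lineage markers were 183497 to 204596 in Ctrl-Mhi, 162434 to 189082 in Cre-Mhi and 136672 to 140921 in Cre-Mlo. Within the list Ms4a1 (mean 40166 in Ctrl-Mhi and 1614 in Cre-Mlo), Cd79a (77897 and 51461), Cd22 and Blk were lower in Cre-Mlo. Blnk (18686 and 31192), Ebf1 (10115 and 13550) and Pax5 (8599 and 10858) were higher. The part of these markers in the difference was not tested.

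**Figure D2:**
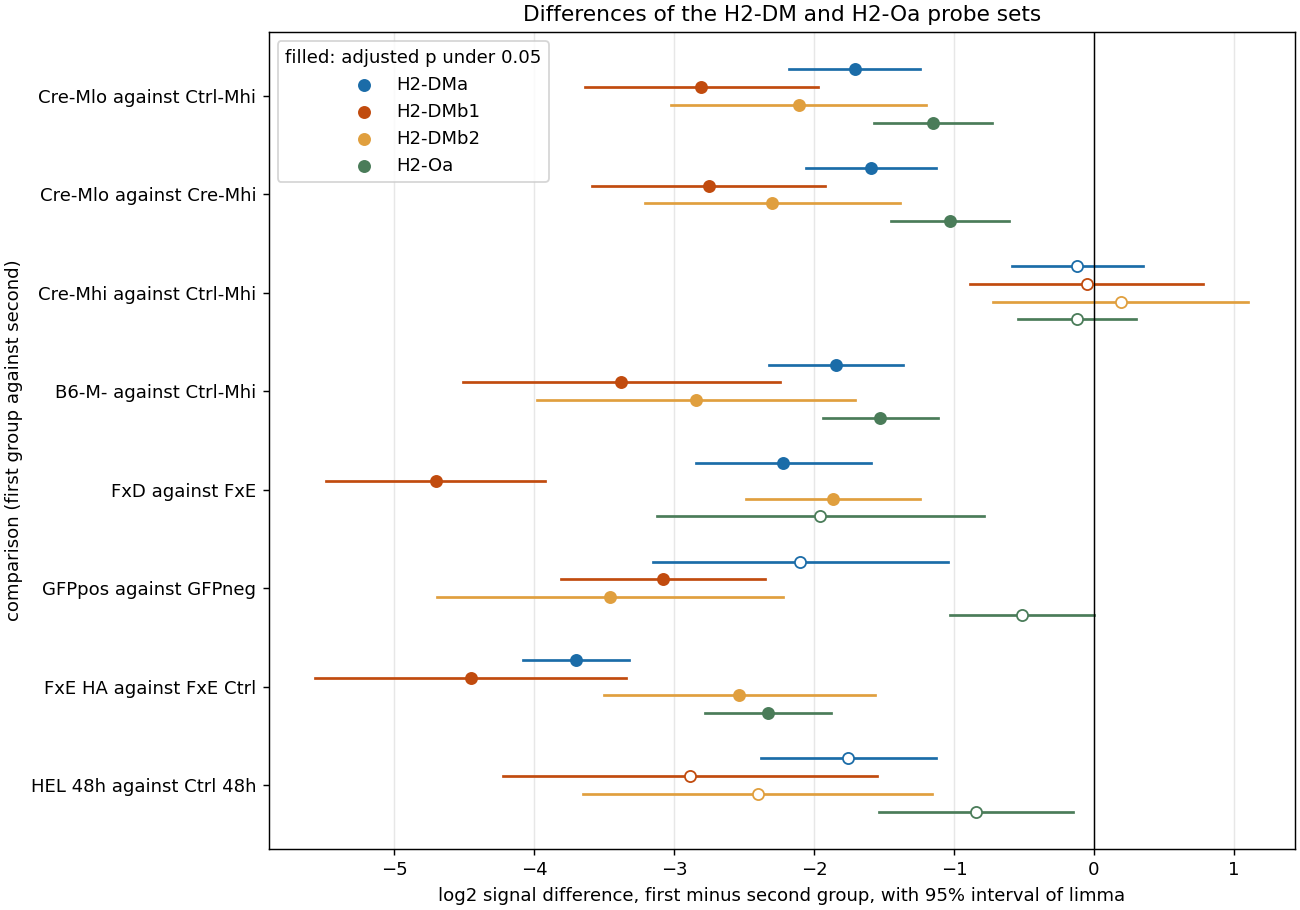
Log2 difference of the first group minus the second (horizontal axis) for each loading gene in 8 comparisons (vertical axis), with 95% intervals from limma; filled points passed at an adjusted p under 0.05. Every point lies below 0 except H2-DMb2 in Cre-Mhi against Ctrl-Mhi, and H2-DMb1 in FxD against FxE is the lowest.

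IgM-negative precursors from culture were compared with Ctrl-Mhi next, and all 4 genes were lower in B6-M-, where 7.3% of probe sets were called lower and 14.2% in all. For each the groups were apart, as for 15.7% of probe sets with B6-M- lower. H2-DMa was 3854.4, 2977.7 and 3085.2 in B6-M-, close to its Cre-Mlo signals and below all Ctrl-Mhi arrays (log2 difference -1.84, SE 0.20, adjusted p = 0.00222 in limma). H2-DMb1 was 1857.5, 689.6 and 1037.8 (log2 difference -3.37, adjusted p = 0.00578), and H2-DMb2 was 1059.6, 652.9 and 549.1 (log2 difference -2.84, adjusted p = 0.011). The first B6-M- array had the highest signal of both beta chains and of H2-DMa, yet lay under the lowest Ctrl-Mhi array. H2-Oa was 1762.4, 1772.8 and 1440 (log2 difference -1.52, adjusted p = 0.00253). In contrast to Cre-Mlo, H2-Ob fell too (-1.18, adjusted p = 0.0114). The same Ctrl-Mhi arrays serve this comparison and that with Cre-Mlo. Strain, receptor, interferon and IL-7 differed along with IgM and cannot be told apart. Summed B lineage markers were 120181 to 147362 in B6-M- and 183497 to 204596 in Ctrl-Mhi. Blnk (mean 29014 in B6-M- and 18686 in Ctrl-Mhi) was higher, and the other measured markers, Ms4a1 (1511 and 40166) among them, were lower. Their part in the result was not examined by a test. One class II gene marks the strain: H2-Ea, not transcribed from the b haplotype of C57BL/6, was at 28.6 to 86.7 in B6-M- and at 8221.8 to 26855.3 in Ctrl-Mhi.

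In marrow without culture, pre-B cells (FxD) had lower signals than immature B cells (FxE) for each gene, and 3 of 4 passed, where 1.25% of probe sets were called lower and 3% in all. All 4 were without overlap, as were 9.42% of probe sets with FxD lower. H2-DMa was 7218.1, 4681.1 and 6114.9 in FxD and 26666.9, 28689.8 and 27165.6 in FxE. The FxE arrays lay close together and well above FxD (log2 difference -2.22, SE 0.26, adjusted p = 0.0175 in limma). H2-DMb1 was 161.5, 294.2 and 276.1 in FxD and 5375.6, 7332.9 and 5857.1 in FxE. The FxD signals were dim, so the size of the difference is less certain than its direction (log2 -4.70, SE 0.32, adjusted p = 0.00993), with rank 5 by p among all probe sets. H2-DMb2 was 502.6, 490.8 and 661.9 in FxD and 2024.5, 1704.3 and 2285.1 in FxE, a smaller step without overlap (log2 -1.86, adjusted p = 0.0225). H2-Oa was 964.8, 525.9 and 1599.9 in FxD and 2970.5, 5271.4 and 3013.5 in FxE. The groups did not overlap, but the spread within FxD was wide and the log2 difference of -1.95 (SE 0.48) did not pass (adjusted p = 0.114). It passed where probe sets with a mean signal under 200 were left out (adjusted p = 0.037) and with an intensity trend (adjusted p = 0.0174).

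These calls rested on few arrays. No member passed once FxD replicate 2 was left out, nor without replicate 1 of FxE or its replicate 3. When FxD replicate 1 or 3 or FxE replicate 2 was left out, H2-DMb1 alone passed. Log2 differences were -1.54 or lower each time. Beside this result, summed B lineage markers were 76225 to 82547 in FxD and 160250 to 164133 in FxE, macrophage and dendritic markers 3704 to 5712 and 5667 to 12290, and neutrophil markers 35561 to 75103 and 64453 to 268782. Of the B lineage markers, Blnk (mean 18838 in FxD and 11503 in FxE) and Ebf1 (1220 and 1006) were higher in FxD. The others, Ms4a1 (10742 and 73513) among them, were lower. The part of all these markers in the result was not tested.

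Herbimycin A was used to ask what blocking tyrosine kinases does in cells that keep IgM. In GFPpos against GFPneg both beta chains fell, 2 of 4 members, with 1.21% of probe sets called lower and 2.59% in all. H2-DMb1 was 19376.2, 18422.9 and 18021.1 in GFPneg and 1440.9, 2943.3 and 2513.9 in GFPpos, an 8.45-fold difference (log2 -3.08, SE 0.29, adjusted p = 0.023 in limma). H2-DMb2 was 8632.8, 9772.2 and 8933.5 in GFPneg and 385.6, 1391.3 and 1058.1 in GFPpos (log2 -3.46, adjusted p = 0.0424). Arrays of GFPneg were tightly grouped, and the first GFPpos array was the lowest of its group for every member. H2-DMa was 14262.5, 14718.6 and 14278 in GFPneg and 1748.7, 5006.3 and 4360.8 in GFPpos, with no overlap and a log2 difference of -2.10 (SE 0.42) that did not pass (adjusted p = 0.0693). H2-Oa was 3831.8, 5092.2 and 5456.7 in GFPneg and 2785.2, 3562.5 and 3685.4 in GFPpos. The ranges were close to touching, and its log2 difference was -0.51 (adjusted p = 0.243, 95% interval -1.03 to 0.004). Groups that did not overlap, with GFPpos lower, made up 15.2% of all probe sets.

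Leaving out any GFPneg array, or GFPpos replicate 2 or 3, ended both calls. Without GFPpos replicate 1, H2-DMa passed beside the beta chains (adjusted p = 0.0433). Summed B lineage markers were 143548 to 145182 in GFPpos and 159306 to 167475 in GFPneg. Mean Ms4a1 (6301 in GFPpos and 39806 in GFPneg), Cd22, Cd79a and Pax5 were lower. Blnk (34441 and 14658), Ebf1 (10566 and 6733) and Blk were higher. The part of these markers in the result was not tested. H2-Ea was at 15.9 to 717.8 in GFPneg and at 33 to 89.8 in GFPpos.

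In immature B cells sorted from Bcl-2 transgenic marrow all 4 members fell with herbimycin A (FxE HA), with 2.19% of probe sets called lower and 3.37% in all. H2-DMa, H2-DMb1 and H2-Oa did not overlap, as was so for 3.53% of probe sets with FxE HA lower. Hours of culture were a factor of this fit: FxE Ctrl replicates 1 and 2 and FxE HA replicates 1 to 4 were 24 h cultures, the others 48 h. H2-DMa was 23159.5, 24920.3, 17810.1 and 18342.3 in FxE Ctrl and ran from 1094.6 over a median of 1825 to 2141.1 in FxE HA. The lowest control array was thus far above the highest treated one, a 13.0-fold difference (log2 -3.70, SE 0.17, adjusted p = 7.15e-06 in limma), with rank 3 by p among all probe sets. H2-DMb1 was 7097.3, 7385.3, 3700.1 and 2294.5 in FxE Ctrl and 107.4 to 497.5, median 223, in FxE HA. Both 48 h controls were the lower ones, and still above all treated arrays (log2 -4.45, SE 0.49, adjusted p = 0.00158).

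H2-DMb2 was 1470.4, 1466.3, 533.2 and 1159.2 in FxE Ctrl and 82.4 to 632.9, median 237, in FxE HA. One control array lay inside the treated range, and the log2 difference was -2.53 (SE 0.43, adjusted p = 0.0126 in limma). Without the factor for hours it was -2.31 and did not pass (adjusted p = 0.0739). H2-Oa was 2411, 2357.7, 3587.2 and 3074.5 in FxE Ctrl and 427.3 to 704.6, median 549, in FxE HA. No array overlapped (log2 -2.33, SE 0.20, adjusted p = 0.000388), and H2-Ob fell with it (-1.20, adjusted p = 0.0175). At 24 h alone log2 differences were -3.64, -5.05, -2.19 and -2.15 for H2-DMa, H2-DMb1, H2-DMb2 and H2-Oa, and at 48 h alone -3.77, -3.65, -2.99 and -2.58. With 2 arrays a group at 48 h no member passed. Summed B lineage markers were 131276 to 168900 in FxE Ctrl and 90955 to 112963 in FxE HA. Mean Ms4a1 (51930 in FxE Ctrl and 19375 in FxE HA), Blk, Cd22, Pax5 and Ebf1 were lower. Cd79a (18202 and 20570) and Blnk (13965 and 17901) were higher. Macrophage and dendritic markers summed to 6448 to 12780 and 6456 to 11883, with mean Adgre1 at 312 and 67.8, Lyz2 at 4988 and 4510 and Cd14 at 1352 and 1362. The part of these markers in the result was not tested.

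Antigen was the third way in which receptor signaling was altered, on U74A arrays. In HEL 48h against Ctrl 48h no member passed, with 0.0874% of probe sets called lower and 0.23% in all, although all were lower without overlap, as were 12.1% of all probe sets. H2-DMa was 25328, 26050 and 17524.2 in Ctrl 48h and 5615.79, 7710.1 and 6951.28 in HEL 48h (log2 difference -1.75, SE 0.26, adjusted p = 0.0883 in limma). H2-DMb1 was 37751.7, 35588.5 and 15387.4 in Ctrl 48h and 2211.08, 6982.11 and 3304.65 in HEL 48h (log2 difference -2.89, adjusted p = 0.13). H2-DMb2 was 17040.3, 19458.2 and 5536.56 in Ctrl 48h and 2069.78, 2797.82 and 2144.5 in HEL 48h (log2 difference -2.40, adjusted p = 0.165). The third control was the lowest of its group each time. H2-Oa was 8450.52, 9852.37 and 6238.85 in Ctrl 48h and 3497.26, 5565.16 and 4637.71 in HEL 48h (log2 difference -0.84, adjusted p = 0.346).

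Replicates 1 and 2 of both groups were scanned on 1 day and replicate 3 on another. On the first day alone log2 differences were -1.96, -3.22, -2.92 and -1.05 for H2-DMa, H2-DMb1, H2-DMb2 and H2-Oa, and on the second, 1 array against 1, they were -1.33, -2.22, -1.37 and -0.43. With scan day as a block adjusted p ranged from 0.151 to 0.426. By limma with an intensity trend and robust estimation H2-DMa (adjusted p = 0.013), H2-DMb1 (adjusted p = 0.0301) and H2-DMb2 (adjusted p = 0.0469) passed, and in the fit without them 1455 probe sets had an unadjusted p under 0.05.

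**Figure D3:**
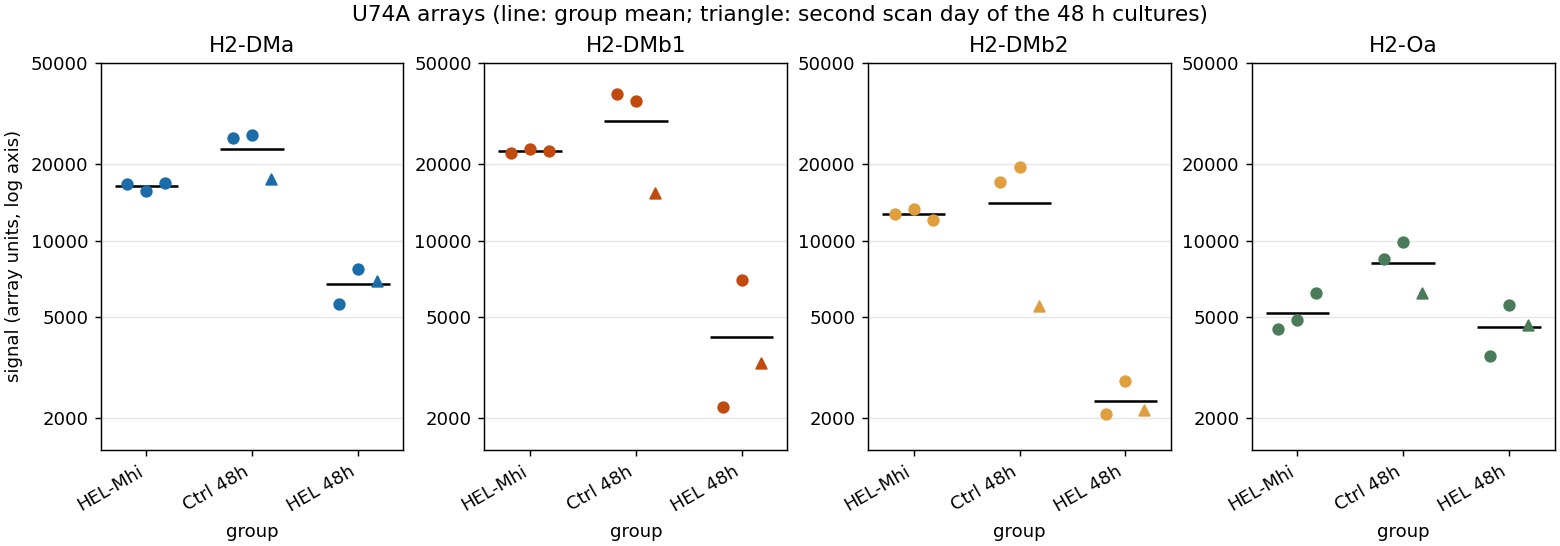
Signal (log axis) of each loading gene on the HEL-Mhi, Ctrl 48h and HEL 48h arrays (U74A); points are arrays, lines group means, and triangles the arrays of the second scan day in the 48 h cultures. Every HEL 48h array lies below every Ctrl 48h array, and the second-day Ctrl 48h array is the lowest of its group.

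HEL-Mhi and HEL-Mlo entered no test, since the latter arrays are on another scale. In HEL-Mhi, H2-DMa was 16701.9, 15737.1 and 16846.9, at the 97.8 to 97.9 percentile of its array. In HEL-Mlo it was at the 87.0 to 92.4 percentile. H2-DMb1 moved from the 98.4 to 98.5 percentile in HEL-Mhi to 84.5 to 88.0 in HEL-Mlo, and H2-DMb2 from 96.9 to 97.4 down to 69.9 to 79.1. H2-Oa was at 89.5 to 92.9 in HEL-Mhi and at 63.0 to 75.1 in HEL-Mlo. All ranks were lower in HEL-Mlo without overlap, as were those of 15.5% of probe sets. Ranks were taken over probe sets held by both arrays, and the labels do not say whether HEL-Mlo cells had met antigen.

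Whether an effect differed between settings was tested as a difference of differences. The herbimycin A difference of H2-Oa was smaller in GFPpos (-0.51) than in FxE HA (-2.33), by 1.82 on the log2 scale (SE 0.30, adjusted p = 0.0107 in limma), where 0.692% of probe sets were called. H2-DMa showed 1.60 in the same direction (adjusted p = 0.0869). It passed without GFPpos replicate 1 (adjusted p = 0.00164) but in none of the other alternatives, 17 of 18, with adjusted p up to 0.199 in limma. H2-DMb1 showed 1.37 (95% interval -0.12 to 2.87) and H2-DMb2 -0.93 (95% interval -2.43 to 0.58), neither called. The systems differ in transgenes, strain, culture and sort, which cannot be told apart. No member was called between the Cre-Mlo and GFPpos differences, where 0.662% of probe sets were. For H2-Oa that difference was -0.64 (95% interval -1.25 to -0.03, adjusted p = 0.39), and for H2-DMb2 it was 1.35 (95% interval -0.06 to 2.77, adjusted p = 0.439). Between the Cre-Mlo and FxD differences, where 4.26% of probe sets were called, H2-DMb1 came nearest, at 1.90 (95% interval 0.75 to 3.04, adjusted p = 0.0612). It passed without Ctrl-Mhi replicate 2 (adjusted p = 0.0309) but in none of the other alternatives, 15 of 16, with adjusted p up to 0.206 in limma. The FxD signals of H2-DMb1 were dim.

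Because H2-O holds H2-DM in check, the signal of H2-Oa relative to H2-DMa on the same array was examined as well. Log2 H2-Oa minus log2 H2-DMa was -1.26, -1.51, -1.27 and -1.18 in Ctrl-Mhi and -1.08, -0.78, -0.39 and -0.75 in Cre-Mlo. All Cre-Mlo arrays were above Ctrl-Mhi, by 0.56 in the mean. It was -1.90, -1.53 and -1.39 in GFPneg and 0.67, -0.49 and -0.24 in GFPpos, a difference of 1.58, and -1.58, -1.40 and -1.49 in Ctrl 48h against -0.68, -0.47 and -0.58 in HEL 48h, a difference of 0.91. In FxE Ctrl it was -3.26, -3.40, -2.31 and -2.58, and in FxE HA it ran from -2.18 over a median of -1.66 to -0.85, a difference of 1.35 with hours held fixed. In each of these pairs the value was higher in the cells with lower H2-DMa. This restates that H2-DMa fell more than H2-Oa there and is not a further result. B6-M- was 0.32 above Ctrl-Mhi, and FxD 0.26 above FxE with overlapping arrays.

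By two-sided exact permutation tests p was 0.0286 for Cre-Mlo against either IgM-high group and for B6-M-, and 0.0111 for FxE HA. It was 0.1 for GFPpos and HEL 48h, the smallest that 3 arrays against 3 allow, 0.5 for FxD and 0.971 for Cre-Mhi against Ctrl-Mhi. After Benjamini-Hochberg adjustment over the 8 comparisons the lowest adjusted p was 0.0571, so none passed. The p-values of Cre-Mlo, B6-M- and FxE HA were also the smallest that their arrays allow. With so few arrays the adjusted test could hardly pass, and it does not show an absence of change. A higher H2-Oa to H2-DMa value shows only that the signals changed unequally.

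**Figure D4:**
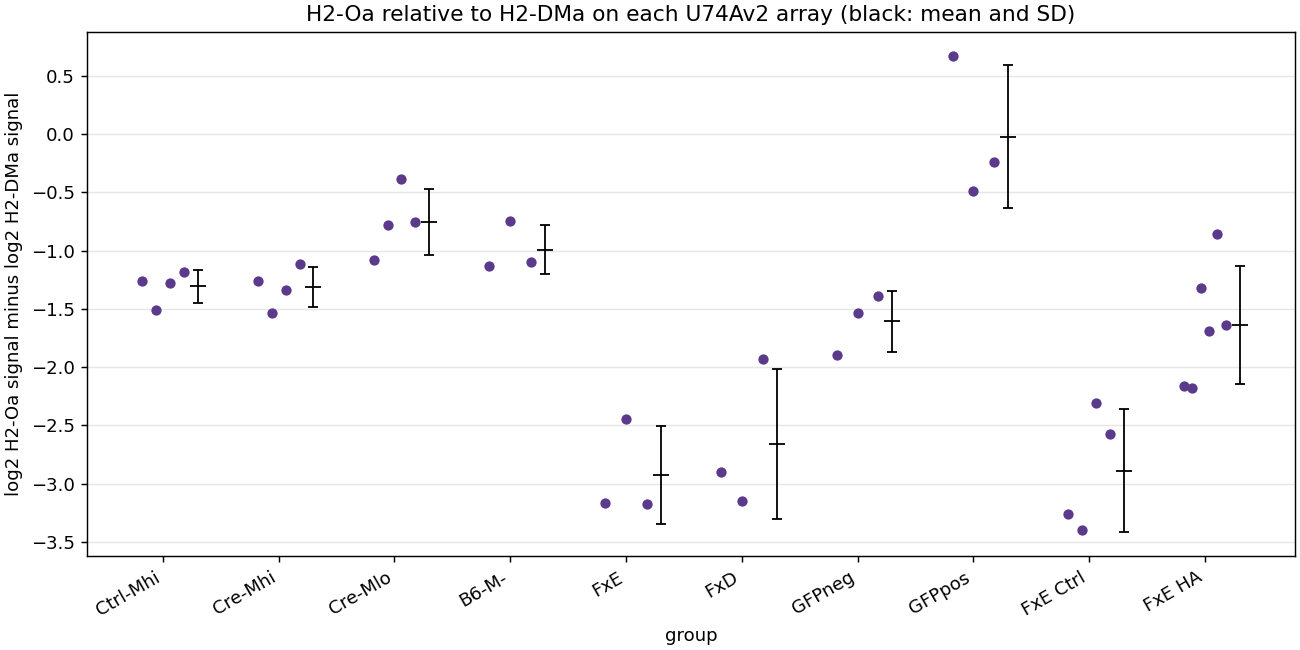
Log2 H2-Oa signal minus log2 H2-DMa signal on each U74Av2 array, by group; purple points are arrays, black bars mean and SD. Cre-Mlo, GFPpos and FxE HA arrays lie above those of Ctrl-Mhi, GFPneg and FxE Ctrl, with FxE HA from -2.18 to -0.85 just above the FxE Ctrl arrays.

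Other genes of the pathway were taken from lists by role. Of 7 measured class II chain and chaperone genes, 5 fell in Cre-Mlo against Ctrl-Mhi, 5 against Cre-Mhi, 7 in B6-M-, 4 in FxD, 2 in GFPpos, 6 in FxE HA and none in HEL 48h, and none rose. The 7 include H2-Ea, not transcribed in C57BL/6, whose lower signal in B6-M- marks the strain. In GFPneg H2-Ea was already low, at 15.9 to 717.8. H2-Eb1, a class II beta chain, showed log2 differences of -2.58 in Cre-Mlo against Ctrl-Mhi (adjusted p = 0.000397), -3.56 in B6-M- (adjusted p = 0.000615) and -5.60 in FxE HA (adjusted p = 6.18e-07). Cd74, the invariant chain, showed -1.80 in Cre-Mlo (adjusted p = 0.0011) and -3.64 in FxE HA (adjusted p = 0.000207). In Cre-Mlo against Ctrl-Mhi the list had a median log2 difference of -1.83, against -0.04 over all probe sets.

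Among 6 measured class II regulators only Ciita passed in any comparison. Its log2 difference was -1.18 in Cre-Mlo against Ctrl-Mhi (adjusted p = 0.00694), -1.39 in B6-M- (adjusted p = 0.0077), -1.24 in GFPpos (adjusted p = 0.0428) and -1.06 in FxE HA (adjusted p = 0.0116). In FxD against FxE, where the beta chain H2-DMb1 stood furthest apart, it was -0.40 (adjusted p = 0.518), and in HEL 48h it was -1.28 (adjusted p = 0.182). Nfya, Nfyb, Nfyc, Rfxank and Creb1, which encode factors or subunits acting at the same boxes, did not pass anywhere.

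Of 10 genes for endosomal proteases and peptide supply, 6 fell and 1 rose in Cre-Mlo against Ctrl-Mhi. Ctsh, a cathepsin, fell by 2.46 (adjusted p = 3.04e-05), and Ctsc, the cathepsin that activates granule proteases, fell by 1.27 (adjusted p = 0.000449). Ifi30, a thiol reductase of endosomes, fell by 0.84 (adjusted p = 0.00193). In GFPpos none fell and Ctsl rose by 2.08 (adjusted p = 0.0382). FxD showed 3 falling, B6-M- 6 falling and 1 rising, and FxE HA 2 falling. Of 4 class II traffic genes none passed in Cre-Mlo against Ctrl-Mhi and 1, Cd83, fell against Cre-Mhi, in B6-M-, in FxD (-4.44, adjusted p = 0.00993) and in FxE HA (-5.19, adjusted p = 0.00032), while Cd9 rose in B6-M-.

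Class I loading genes, several of which lie between the H2-DM genes and H2-Ob, were listed too. Of 11 measured, none passed in Cre-Mlo against Ctrl-Mhi or in FxD, 1 fell against Cre-Mhi, 2 fell in B6-M- and 3 each in GFPpos and FxE HA. The 3 in both herbimycin A comparisons were Tap1, a peptide transporter chain, and the immunoproteasome subunits Psmb8 and Psmb9. Tap1 showed log2 differences of -1.85 in GFPpos (adjusted p = 0.023) and -1.52 in FxE HA (adjusted p = 0.00199), against -0.20 in Cre-Mlo against Ctrl-Mhi (adjusted p = 0.377). Its neighbor Tap2 did not pass in any comparison. Whether the members and these neighbors differed from each other was not tested.

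**Figure D5:**
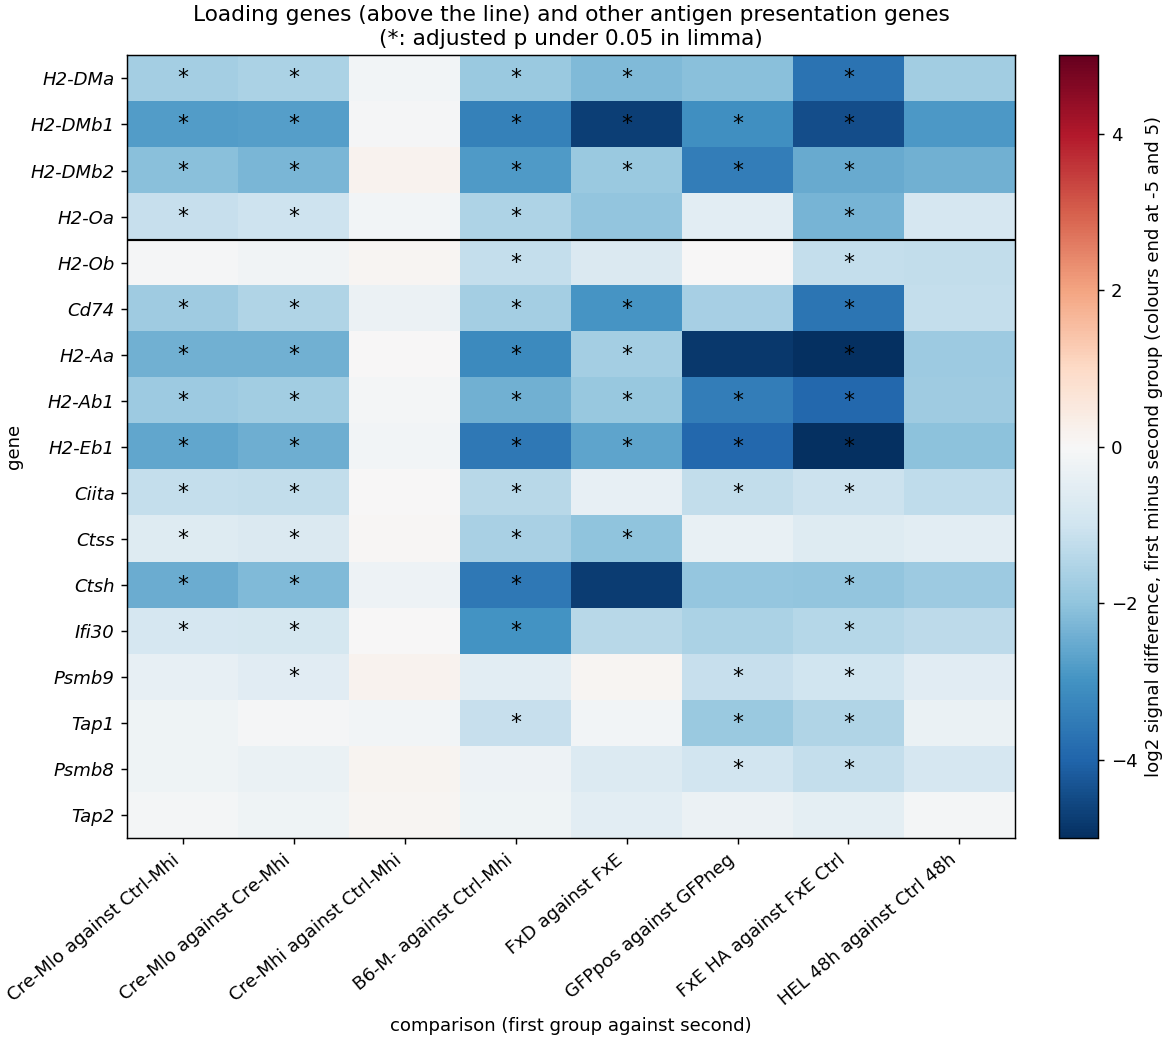
Log2 signal difference, first minus second group (colour), of the 4 loading genes (above the line) and 13 other antigen presentation genes in 8 comparisons; asterisks mark an adjusted p under 0.05 in limma, and colours end at -5 and 5. Class II chains are blue with the loading genes in most columns, H2-Ob and Tap2 are pale in Cre-Mlo, and no gene is marked in the Cre-Mhi or HEL 48h column.

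Over all 37 U74Av2 arrays the genes with the most similar log2 signals differed between the alpha chain and the other members. For H2-DMa they were H2-Eb1 (Pearson r = 0.973), H2-Ab1 (0.959), H2-Aa (0.927), Ptpn6 (0.901) and Irf8 (0.885). For H2-DMb1 they were Cd74 (0.919), H2-Oa (0.911), Cd52 (0.907), Ciita (0.898) and H2-DMb2 (0.88). H2-DMb2 was nearest to Ciita (0.909), H2-DMb1 (0.88), Scd1 (0.875), Fcgr2b (0.853) and Cd74 (0.853). H2-Oa was nearest to Cd52 (0.948), H2-DMb1 (0.911), Wipf1 (0.884), Cd74 (0.876) and Tob1 (0.87). H2-DMa correlated at 0.71 to 0.77 with the other members, which correlated at 0.84 to 0.91 among themselves. Arrays of a group share strain, culture and sort, and these values only describe the present groups.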

How the data were processed

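Signals on U74Av2 (9977 probe sets, 37 arrays) and U74A (12588 probe sets after 66 control probe sets, 12 arrays) were analyzed as deposited. The authors computed these hybridization intensities with Microarray Suite 5.0, applied a U74A mask and scaled each array to 1500 units. For HEL 48h and Ctrl 48h the labels name MAS5 alone, and deposited instrument run files gave scan days. Tables were normalized separately and never compared by level. Probe sets took gene names from GEO's platform annotation: 8724 of U74Av2 matched 1 gene, 346 several and 907 none.

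Signals under 20 were raised to 20, log2 transformed and tested by lmFit and eBayes of limma 3.58.1 (R 4.3.3). Each p-value was adjusted after Benjamini-Hochberg over every probe set fitted, with calls at an adjusted p under 0.05. Ctrl-Mhi, Cre-Mhi and Cre-Mlo shared 1 fit, and other comparisons used their own arrays. A floor of 100, quantile normalization, a mean signal of at least 200, an intensity trend, the methods' t-test, replicate blocks and omission of each array were alternatives. The 24 h and 48 h and the single scan day values were added after seeing the data. Log2 differences use the floor of 20 and may understate changes of dim probe sets; the number of arrays limits precision. Groups came from the labels, hours of the FxE cultures from a figure legend of the study by replicate number, culture details and ages from its methods. All 4 members were named in every comparison; of other genes, up to 3 called per list and comparison by smallest adjusted p, chosen class II genes, and the 5 nearest by correlation with a mean signal of at least 500. Members and lists were chosen with earlier results of these data known. Scripts were tested on simulated data. Promoters came from RefSeq (GRCm38.p6), where all 4 members matched.

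Same-numbered Cre-Mlo and Cre-Mhi arrays deviated together over probe sets with a mean signal of at least 500 (r = 0.177 to 0.474), as did HEL 48h and Ctrl 48h (r = 0.111 to 0.239). Over all probe sets those of Cre-Mlo and Cre-Mhi were 0.01 to 0.17.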

Additional observations from a re-analysis of the deposited data

Results flagged for a closer look

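The difference of H2-Oa between GFPpos and GFPneg was smaller than that between FxE HA and FxE Ctrl, by 1.82 on the log2 scale (SE 0.30, adjusted p = 0.0107 in limma). It passed without each array in turn, with values of 1.66 to 1.94. GFPpos was lower than GFPneg in 3 of 3 arrays and FxE HA lower than FxE Ctrl in 6 of 6.

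Of 25 combinations of a probe set and a group of 4 or 6 arrays, 1 held an array far from the others. FxE HA replicate 3 had a signal of 231.3 on the probe set shared by H2-DMb1 and H2-DMb2, the highest of its group. The other FxE HA arrays were at 13.8 to 29.1, around the floor of 20, so the gap rests on dim signals. Chance alone gives about 1 such group in 20.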

How the results depend on the processing

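Directions of all called member differences were kept under every alternative run. The 4 calls in Cre-Mlo, against Ctrl-Mhi or Cre-Mhi, and in B6-M- were kept without each array in turn, and so were those in FxE HA, while FxD gave 0 to 1 in place of 3 and GFPpos 0 to 3 in place of 2. HEL 48h stayed at 0. Differences between effects gave 1 to 2 calls for GFPpos against FxE HA and 0 to 1 for Cre-Mlo against FxD. The methods' t-test after adjustment left 1 member in Cre-Mlo against Ctrl-Mhi, 0 against Cre-Mhi, 1 in B6-M- and 0 in FxD, GFPpos and FxE HA. Over all probe sets it called 385 in place of 831, 293 of 607, 529 of 1417, 1 of 299, 1 of 258 and 123 of 336 in the same order, and 0 of 29 in HEL 48h. At the methods' thresholds without adjustment (p under 0.01, or 0.05 for FxD, at least 2-fold and 200 units) 285, 217, 513, 515, 183, 219 and 100 passed. The study also set signals to 20 by detection p-value, which was not done here, so its own list was not reproduced. H2-DMa and H2-Oa passed in Cre-Mlo against Ctrl-Mhi, in B6-M- and in FxE HA, where both beta chains missed. H2-DMa alone passed against Cre-Mhi. All members but H2-Oa passed in FxD and GFPpos, and none in HEL 48h. With the replicate block 0 members passed in FxD, 0 in B6-M-, 0 in GFPpos and 2 in FxE HA, with 0, 137, 0 and 45 probe sets in all. The block changed no other member call, those of the paired Cre-Mlo and Cre-Mhi included. In FxE HA it left out hours and paired 24 h replicates 3 and 4 with 48 h controls. Same-numbered arrays hardly deviated together in FxD (r = -0.26 to 0.01), B6-M- (r = -0.08 to -0.02) or GFPpos (r = -0.04 to 0.08) at a mean signal of at least 500. The block therefore says little there. In HEL 48h 1 member passed with the filter at 200 and 3 with the trend. A filter at 200 called 500, 736, 535 and 73 probe sets in FxD, GFPpos, FxE HA and HEL 48h, and the trend 531, 907, 594 and 174. The 48 h FxE arrays alone gave 0 members and 0 probe sets, those of 24 h 104. A floor of 100 called 494 in GFPpos and 54 in HEL 48h. For differences between effects it called 161 against 66 (Cre-Mlo and GFPpos) and 217 against 69 (GFPpos and FxE HA), the latter 112 after quantile normalization. The scan day block left 0 in HEL 48h. Cre-Mhi against Ctrl-Mhi gave 0 to 5 in place of 2. Without single arrays 0 to 125 probe sets were called in FxD, 1 to 91 in GFPpos, 186 to 323 in FxE HA, 737 to 1232 in B6-M-, 0 to 3 in HEL 48h, and 387 to 520 in Cre-Mlo against Cre-Mhi. Between effects they were 335 to 639 in place of 425 (Cre-Mlo and FxD), 40 to 103 in place of 66 (Cre-Mlo and GFPpos) and 40 to 103 in place of 69 (GFPpos and FxE HA). The H2-Oa to H2-DMa difference of FxD ranged from -0.10 to 0.51. Causes were not tested. Dim signal limits H2-DMb1 and H2-DMb2 in FxE HA and H2-DMb1 in FxD, whose arrays came near or under 200 units.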
